A study of Mus musculus with 2 samples.

Results

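The 10 genes described here are feedback genes and targets of the extracellular signal-regulated kinase (ERK) pathway, read from 2 microarrays of CD34-positive skin tumour cells: *Dusp4*, *Dusp5*, *Dusp6*, *Spry1*, *Spry2*, *Spry4*, *Spred1*, *Spred2*, *Etv4* and *Etv5*. The platform annotation maps 28 probe sets to exactly 1 of these 10 genes, out of 34958 probe sets that it maps to exactly 1 gene and 18194 genes in all. Both mice had received DMBA, a chemical carcinogen, on postnatal days 23, 25 and 27, then TPA, a phorbol ester that promotes tumours, in repeated weekly doses, and DMBA again at 7 weeks of age. One array held RNA of tumour epithelial cells sorted from a wild-type mouse and the other of the same kind of cells from a K14CreER:Rosa-VEGF-164 mouse, in which Cre under the keratin 14 promoter acts on a VEGF transgene. The cells had been sorted alive with antibodies to CD34, α6-integrin and Epcam and with CD45, CD31 and CD140a all stained in another single colour. Whether several tumours or animals were pooled for an array, and when Cre was induced, is not given in the sources used here. With 1 array per genotype there was no replicate error and no test between genotypes, and every difference below is a comparison of these 2 arrays.

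ERK is the last kinase of the RAS, RAF and MEK cascade, through which growth factor receptors drive the division of keratinocytes and skin tumours carry oncogenic RAS signals. Active ERK switches on genes whose products shut it off again. DUSP4, DUSP5 and DUSP6 are phosphatases that remove the activating phosphates from ERK, Sproutys and Spreds restrain the steps between receptor and RAF, and ETV4 and ETV5 are ETS transcription factors that carry the signal to target genes. The transcripts of this circuit are therefore often used as a readout of ERK activity.

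A RefSeq table of promoter windows held 7 of the 10 genes, with 8 annotated start sites. The 250 bases before each start (GRCm38.p6) are shown for *Dusp6*, the brightest of the phosphatase genes that were lower on the VEGF array, for *Dusp5*, the only member that was higher there, and for the downstream of 2 *Etv5* starts. Capitals mark TGAATG on either strand, the core of the sequence that the repressor capicua binds, and, in *Dusp5*, also the CArG box, the site of serum response factor; both were searched after these windows had been read.
Dusp6, chr10:99262981-99263230, plus strand: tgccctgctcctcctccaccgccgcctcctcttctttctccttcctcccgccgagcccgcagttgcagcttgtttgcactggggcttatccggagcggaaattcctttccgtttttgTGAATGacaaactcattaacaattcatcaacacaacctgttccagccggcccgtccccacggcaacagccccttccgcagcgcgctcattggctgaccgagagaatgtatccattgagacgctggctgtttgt
Dusp5, chr19:53528895-53529144, plus strand: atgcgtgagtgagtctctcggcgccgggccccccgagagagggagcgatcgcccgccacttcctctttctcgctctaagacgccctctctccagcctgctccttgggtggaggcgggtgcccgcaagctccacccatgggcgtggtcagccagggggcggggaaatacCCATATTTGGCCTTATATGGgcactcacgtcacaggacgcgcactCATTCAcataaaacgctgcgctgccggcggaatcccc
Etv5, chr16:22438369-22438618, minus strand: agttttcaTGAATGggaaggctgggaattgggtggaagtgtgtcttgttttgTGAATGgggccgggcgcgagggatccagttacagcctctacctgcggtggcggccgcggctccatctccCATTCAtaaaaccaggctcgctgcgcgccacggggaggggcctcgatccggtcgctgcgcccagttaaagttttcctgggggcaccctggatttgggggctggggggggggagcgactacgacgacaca
The *Etv5* window held TGAATG 3 times, and the *Dusp6* and *Dusp5* windows held it 1 time each. It was in 3 of the 8 windows of the members, which are the 3 printed here, and in 10.9% of all 32851 windows of that length. The windows not printed, among them the other *Etv5* start, did not hold it. The CArG box stood 2 times in the *Dusp5* window, side by side and without overlap with TGAATG, in 0 of the other 7 windows and in 1.47% of all windows. Also searched on both strands were TGAATGAA, 1 longer form of the capicua sequence, and the ETS sequence CCGGAAGT. The AP-1 sequence TGACTCA and the cyclic AMP response element TGACGTCA were searched likewise. These 4 were in 0 of the 8 windows and, in that order, in 1.08%, 2.88%, 4.46% and 1.55% of all windows. All of these are matches of letters in short windows. Other longer forms of the capicua sequence were not searched, and no binding was measured.

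The deposited values are log2 signals, anti-logged here where a signal is given. Background on each array was the 90th percentile of 80 probe sets for olfactory and vomeronasal receptor genes, at a signal of 19.8 in wild type and 11.3 with VEGF. Each gene was read from its brightest probe set, by mean log2 signal, and its log2 ratio is always VEGF over wild type. The spread available came from probe sets of the same gene, whose log2 ratios had an SD per probe set of 0.50, 0.42 and 0.32 in the lowest, middle and highest tertile of signal over 4887 genes. It leaves out the spread between animals, tumours and sorts. *Vegfa* itself had signals of 804 in wild type and 397 with VEGF (log2 ratio -1.02). A second *Vegfa* probe set had 302 in wild type and 127 with VEGF (log2 ratio -1.26). Since it is not known whether these probe sets read the transgene, the directions below follow the labels.

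All 10 members were above background on both arrays, and 9 of the 10 (8 with an offset of 50) had a lower signal on the VEGF array, where 52.9% of the 12199 genes with a fold or bound had a ratio below 0. Their median log2 ratio was -0.57, against -0.04 over all genes. The differences were mostly modest. Only *Spry4* was at least 2-fold lower, 1 of 10, beside 8.53% of all genes, a share close to the background, and 0 of 10 were at least 2-fold higher, beside 3.87%. The lower 9 lay between -1.58 and -0.28, and *Dusp5*, at 0.46, was the exception. Low-signal genes as a whole were lower on the VEGF array, with a median of -0.27 in the lowest tertile against 0.05 in the middle and 0.06 in the highest. Of the 10 members, *Spry4* lay in the lowest tertile and the others in the middle or highest. The part of signal level in the members' ratios was not tested. With an offset of 50 added after matching the array medians, 8 of 10 were below 0 and the median was -0.16, against 0.10 over all genes.

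**Figure D1:**
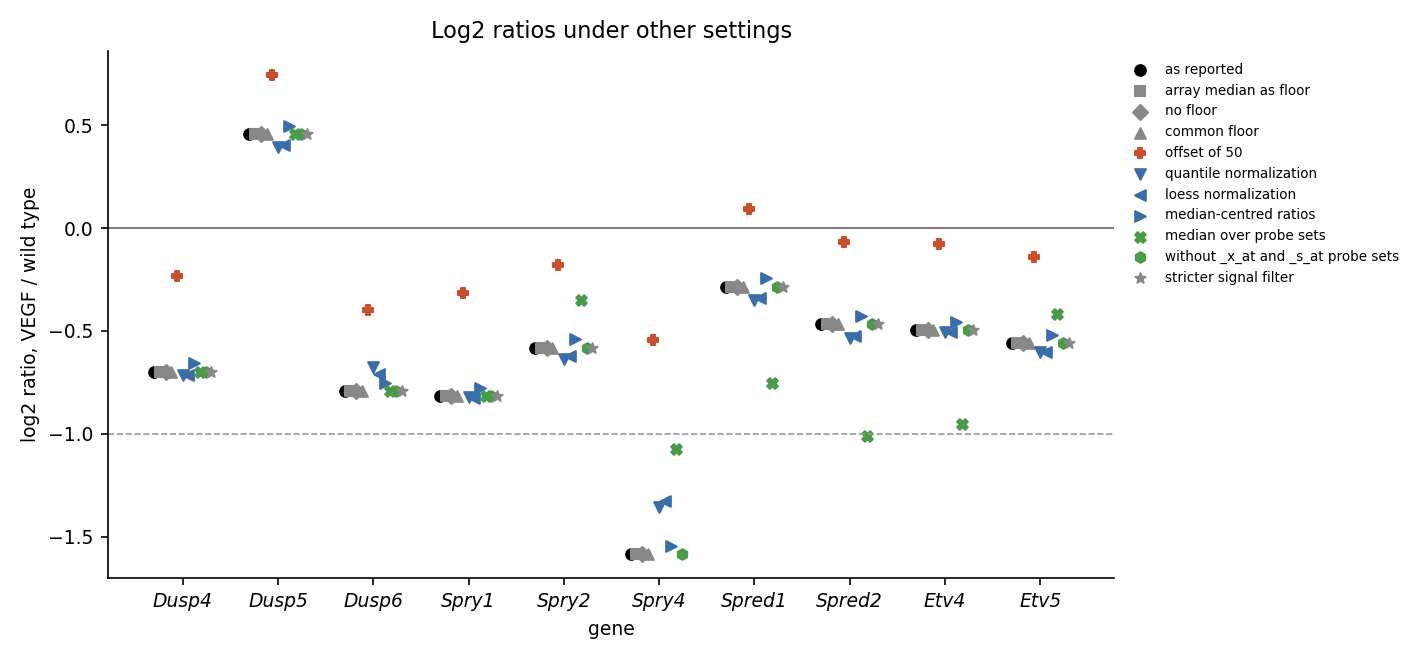
Log2 ratio (VEGF over wild type) of each member as reported (black) and under up to 10 other settings of floor, scaling, filter and gene summary, with a dashed line at 2-fold lower. Dusp5 stays above 0 throughout, and the others stay below 0 except Spred1 with the offset of 50 (0.10). The other floors, dropping _x_at and _s_at probe sets and the stricter filter could not move a plotted ratio.

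**Figure D2:**
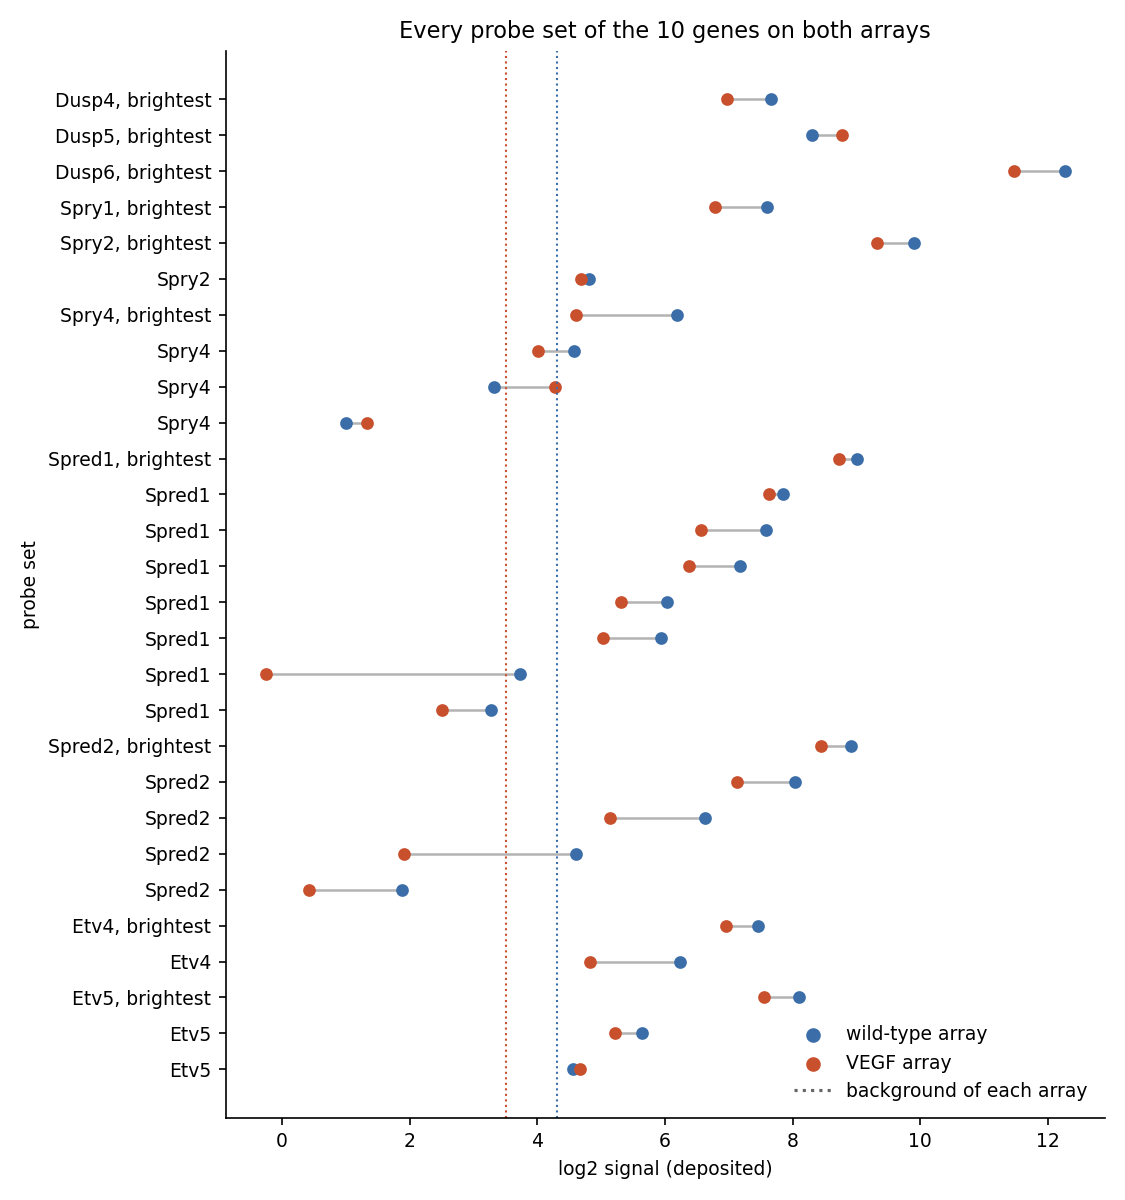
Each row is 1 of the 28 probe sets and shows its deposited log2 signal on the wild-type array (blue) and the VEGF array (orange), with dotted lines at each array's background. The orange point lies to the left of the blue one in 24 of 28 rows, and 4 rows, 1 of Dusp5, 1 of Etv5 and 2 of Spry4, run the other way.

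**Figure D3:**
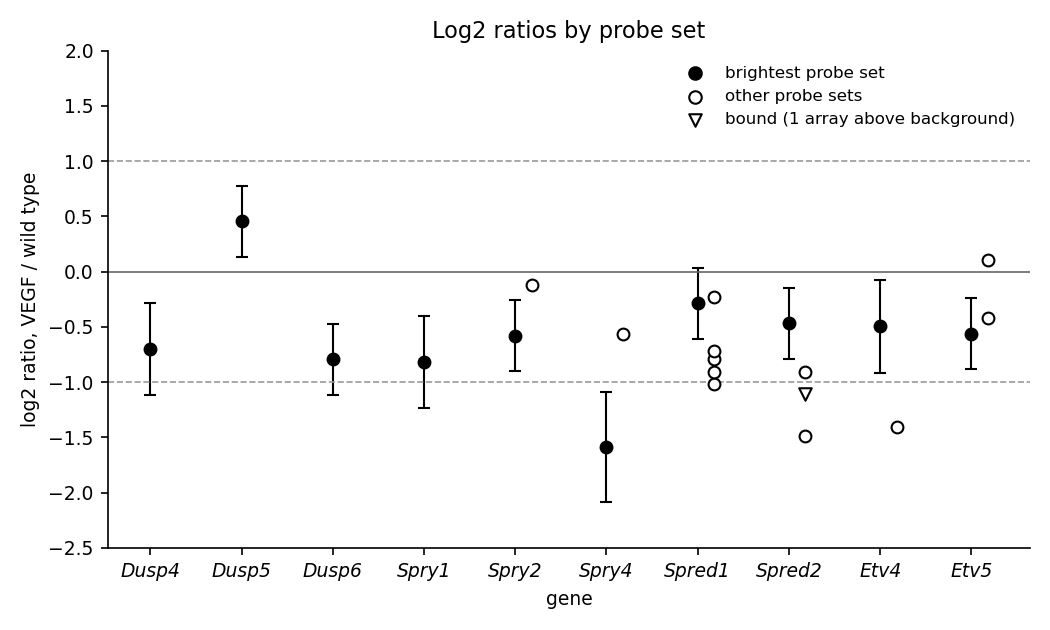
Log2 ratios (VEGF over wild type) of the members by probe set, with filled circles for the brightest probe set, open circles for the others, a triangle for a bound, bars of 1 SD between probe sets of a gene at that signal, and dashed lines at 2-fold. Every plotted probe set lies below 0 except the single one of Dusp5 and 1 of Etv5.

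Among the phosphatases, *Dusp6*, which encodes a cytoplasmic phosphatase specific for ERK, was abundant on both arrays. Its signal was 4930.2 in wild type and 2843 with VEGF, 1.73-fold lower, with a log2 ratio of -0.79 where the probe-set SD at this signal was 0.32. *Dusp4*, which encodes a nuclear phosphatase, went the same way. Its signal was 204 in wild type and 126 with VEGF, a log2 ratio of -0.70 (probe-set SD 0.42). *Dusp5*, whose product is also nuclear and specific for ERK, had 318 in wild type and 436 with VEGF, a log2 ratio of 0.46 (probe-set SD 0.32). The phosphatase genes thus split, with both lower ratios and the higher one each beyond 1 probe-set SD. Each of these 3 genes was read by 1 probe set, so no second probe set checks its direction.

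All 3 Sproutys, membrane-associated inhibitors that act on receptor signalling to RAS and RAF, were lower on the VEGF array. *Spry4* had a signal of 72.6 in wild type and 24.2 with VEGF, 3.0-fold lower, with a log2 ratio of -1.58 (probe-set SD 0.50). Over all genes with a fold, 1.90% had a ratio as low or lower, or 7.16% with the median over probe sets. In the lowest tertile of signal, where *Spry4* lay, 804 of 5260 genes were at least 2-fold lower. The other *Spry4* probe sets were dimmer and less clear. A further one had 23.7 in wild type and 16.1 with VEGF (log2 ratio -0.56), close to the wild-type background. The remaining 2 read higher on the VEGF array, and neither gave a fold. One, at 9.96 in wild type and 19.3 with VEGF, was above background on the VEGF array only. Its VEGF signal lay under the higher wild-type background. The other, at 2.00 against 2.51, was below background on both arrays. The size of the *Spry4* difference therefore rests on 1 probe set of low signal.

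*Spry1* had signals of 195 in wild type and 111 with VEGF, 1.76-fold lower, with a log2 ratio of -0.82 (probe-set SD 0.42) from its single probe set. *Spry2*, the brighter of its pair of probe sets at 961 in wild type and 643 with VEGF, had a log2 ratio of -0.58 (probe-set SD 0.32). The dimmer *Spry2* probe set was nearly equal, at 28.1 against 25.8 (log2 ratio -0.12). Every Sprouty probe set above background on both arrays was thus lower on the VEGF array.

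The Spreds, Sprouty-related proteins that bring neurofibromin to the membrane and so dampen RAS, had the most probe sets, and as deposited each one above background was lower with VEGF. *Spred1* by its brightest probe set had 515 in wild type and 423 with VEGF, a log2 ratio of -0.28, within the probe-set SD of 0.32 and turning to 0.10 with the offset of 50. Its 5 other probe sets above background were lower on the VEGF array as well, with log2 ratios between -1.01 and -0.23. The largest of these differences was 192 in wild type against 95.1 with VEGF, from an _s_at probe set, a kind that may match more than 1 transcript. The median over the 6 was -0.75, a larger difference than the brightest probe set showed. Its remaining 2 probe sets were below background on both arrays, at 13.3 against 0.838 and at 9.69 against 5.65.

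*Spred2* had 482 in wild type and 349 with VEGF by its brightest probe set, a log2 ratio of -0.47 (probe-set SD 0.32). Its next probe sets showed larger differences. They read 263 against 140 (log2 ratio -0.91) and 98.6 against 35.2 (log2 ratio -1.49). One more, at 24.4 in wild type, did not reach background with VEGF and was at least 2.16-fold lower. That bound rests on the VEGF background of 11.3 and was under 2-fold with the wild-type background of 19.8 as a common floor. The dimmest was below background on both arrays, at 3.67 against 1.35. The median over the other 4 was -1.01, so that *Spred2* was past 2-fold by that summary and not by its brightest probe set.

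Both ETV factors, ETS proteins of the PEA3 group that act downstream of receptor and ERK signalling, were lower. *Etv4* had 175 in wild type and 124 with VEGF, a log2 ratio of -0.50 (probe-set SD 0.42), while its dimmer probe set had 75.5 against 28.4 (log2 ratio -1.41). *Etv5* had 276 in wild type and 187 with VEGF, a log2 ratio of -0.56 (probe-set SD 0.32). The other *Etv5* probe sets were dim and did not run together. One had 49.7 against 37.2 (log2 ratio -0.42) and the other 23.7 against 25.4 (log2 ratio 0.10), the only probe set with a fold outside *Dusp5* that was not lower.

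Of the 28 probe sets, 23 gave a fold or bound and 5 did not. Below 0 were 21 of the 23, where 54.7% of the 21526 probe sets of all genes were. At least 2-fold lower were 5 of the 23 (1 each of *Spry4*, *Etv4* and *Spred1* and 2 of *Spred2*), beside 10.3% of all probe sets, and 0 of 23 were at least 2-fold higher, beside 3.53%. Probe sets of 1 gene share its RNA and are not independent. Of the 13 probe sets that were not the brightest of their gene, 12 were below 0. Most of these 13 lay in the lowest tertile of signal, as did all 5 at least 2-fold lower except that of *Spred1*. Over all genes of that tertile, 63.3% had a ratio below 0 and 804 of 5260 were at least 2-fold lower. The part of signal level in these counts was not tested. The brightest probe sets had ratios beyond 1 probe-set SD for 9 of 10 genes, beside 46.5% of all genes in either direction, and beyond 2 for *Dusp6* and *Spry4*, beside 16.7%.

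**Figure D4:**
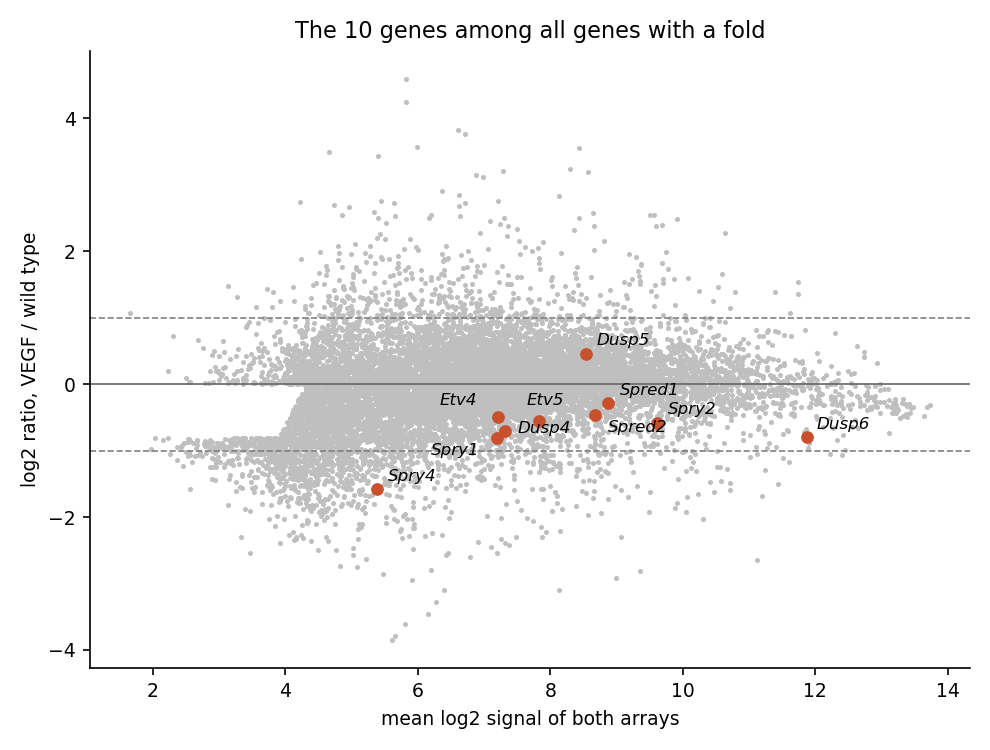
Log2 ratio (VEGF over wild type) against the mean log2 signal of both arrays for the 12199 genes with a fold or bound (grey) and the 10 members (orange), with dashed lines at 2-fold. The members run from Spry4 at low signal to Dusp6 near the top of the range, and 9 of 10 (8 with the offset of 50) lie below 0, inside the cloud of other genes.

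Relatives of these genes went both ways. Of 11 listed MAPK phosphatase, Sprouty, Spred and ETV relatives, 8 had a fold or bound, with a median log2 ratio of 0.26. Below 0 were 3, at least 2-fold higher was 1, and 0 were 2-fold lower. The 1 was *Dusp9*, another ERK phosphatase gene, above background only on the VEGF array (54.0 against 15.7), at least 2.72-fold higher, with 0.18 and 1.16 on the log2 scale from its other probe sets. That count was 0 with the offset of 50 or the stricter filter and 2 after quantile or loess normalization. *Dusp1*, an immediate early phosphatase gene acting on several MAP kinases, was the brightest, at 6192 in wild type and 3901 with VEGF (log2 ratio -0.67). *Dusp7*, a cytoplasmic ERK phosphatase gene, had 561 against 675 (log2 ratio 0.27). The median of this list was -0.43 over the 5 genes left by a stricter signal filter.

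Other genes that follow ERK activity went both ways. Of 12, 7 were below 0, 0 were 2-fold apart, and the median log2 ratio was -0.21, turning to 0.18 with the offset of 50. At least 2-fold higher were 3 of the 12 with that offset and 1 with centred ratios or with the median over probe sets. The brightest were *Fos*, which encodes a subunit of AP-1, at 9373 in wild type and 6942 with VEGF (log2 ratio -0.43), and *Egr1*, a zinc finger factor gene of the early response, at 7122 and 4209 (log2 ratio -0.76).

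The kinases and adaptors of the cascade itself differed little. Of 19 listed, 13 were analysed here, all with a fold, 8 of them below 0, with a median log2 ratio of -0.10 and 0 at least 2-fold apart. That median was 0.27 with the offset of 50. *Nras*, which encodes a RAS protein, had 651 in wild type and 608 with VEGF (log2 ratio -0.10), and *Rps6ka3*, which encodes a kinase activated by ERK, had 418 and 473 (log2 ratio 0.18).

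Other brakes on RAS and receptors split evenly by sign but not by size. With a fold were 8 of 9, of which 4 were below 0 and 1 was past 2-fold lower, and the median log2 ratio was -0.14 (0.10 with the offset of 50). The 4 above 0 were small, between 0.0004 and 0.22, while the 4 below 0 lay between -1.96 and -0.29. *Lrig1*, which encodes a receptor-binding inhibitor and marks stem cells of the upper hair follicle, was that gene, at 747 in wild type and 191 with VEGF, 3.90-fold lower, although its other probe sets gave -1.48 and 0.14. *Rasa1*, a RAS GTPase-activating protein gene, had 785 and 644 (log2 ratio -0.29).

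Among 10 receptor tyrosine kinase genes, 5 were below 0, and 1 lay past 2-fold in each direction. The median log2 ratio was 0.16, or -0.24 over 8 genes with the stricter filter. *Fgfr1*, a fibroblast growth factor receptor gene, had 365 in wild type and 122 with VEGF, 3.0-fold lower, and its other probe sets gave -1.82 and -1.29 on the log2 scale. *Met*, the hepatocyte growth factor receptor gene, had 337 and 780.3, 2.32-fold higher, while its other probe set gave 0.24. The *Fgfr1* difference was under 2-fold with the offset of 50 (0 of 10 lower), and that of *Met* was under 2-fold with the median over probe sets (0 of 10 higher). *Erbb3*, which encodes a partner of the EGF receptor, had 415 and 545 (log2 ratio 0.39).

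Of 12 genes for other ETS factors, ETS repressors, capicua and the COP1 ligase, which marks ETV proteins for degradation, 4 were below 0, with a median log2 ratio of 0.19. *Ehf*, an epithelial ETS factor gene, was at least 2-fold higher, at 78.4 in wild type and 191 with VEGF, 2.43-fold, with 1.15 and 1.26 on the log2 scale from its other probe sets. At least 2-fold higher were 3 of the 12 with the offset of 50 and 2 without _x_at and _s_at probe sets. *Ets2*, a target of ERK phosphorylation, had 1006 and 776 (log2 ratio -0.37), and *Cop1* had 531 and 546 (log2 ratio 0.04). *Etv4* and *Etv5* were lower on the VEGF array, while 8 of the 12 genes of this list were higher, beside 5748 of 12199 over all genes. Of those 8, *Cop1* and *Elk4* (log2 ratio 0.02) were nearly equal on the arrays.

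**Figure D5:**
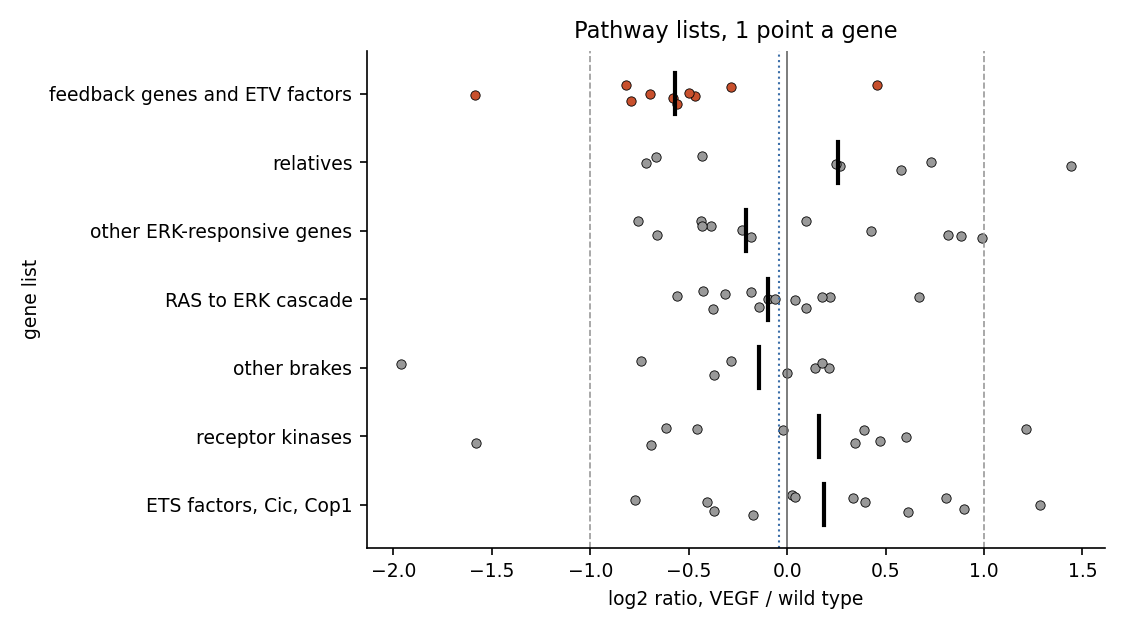
Each point is the log2 ratio (VEGF over wild type) of 1 gene in the 7 lists named at the left, with black bars at list medians, dashed lines at 2-fold and a dotted line at the median of all genes (-0.04). The feedback genes and ETV factors have a median of -0.57 and, as deposited, only Dusp5 to the right of 0 (with Spred1 too under the offset of 50), while the other medians lie between -0.21 and 0.26.

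Markers of the sorted epithelium were present on both arrays, and 8 of 8 were above background, with summed signals of 28934 in wild type and 26970.4 with VEGF. *Krt5* and *Krt14* were the brightest of them and differed little (log2 ratios -0.08 and -0.07). Of the 8, 4 were above 0 and 4 below. *Krt1* (382 in wild type, 1124 with VEGF) and *Cd34* (430 and 751) were higher with VEGF. *Itga6* (3952 and 2421) and *Trp63* (2706 and 1587) were lower. Fibroblast markers were higher on the VEGF array, with a sum of 1119 (5 of 6 above background) in wild type and 2642 (6 of 6) with VEGF. *Col1a2*, a collagen gene with the largest ratio of that list, had 324 against 942, while *Dcn*, which encodes the proteoglycan decorin, ran the other way at 91.3 against 72.3. Melanocyte markers were lower there, with sums of 276 in wild type and 129 with VEGF and 2 and 3 of 4 above background. Endothelial markers had sums of 92.0 and 148, with 2 and 5 of 6 above background, and leukocyte markers 143 and 154, with 3 and 4 of 6. *Ptprc*, which encodes CD45, had 14.4 in wild type, below background, and 17.3 with VEGF, above the lower background there. *Pecam1*, which encodes CD31, had 3.07 in wild type and 22.0 with VEGF. *Pdgfra*, which encodes CD140a, had 9.86 in wild type and 34.7 with VEGF. Both were above background only on the VEGF array, at least 1.11-fold and 1.75-fold higher. *Cd3e* and *Cd79a*, of T and B cells, were below background on both arrays. The part of these other cells in the differences of the feedback genes was not tested, and fewer cells expressing a gene cannot be told apart from less RNA per cell.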

How the data were processed

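CD34-positive tumour epithelial cells were profiled on Affymetrix Mouse Genome 430 2.0 arrays, 1 per genotype, from 100 ng of total RNA, per the labels. The authors deposited log2 signals made with MAS5, per the submitters' processing notes. The MAS5 version is not given in the sources used here, nor is the target signal. The number of arrays limits the precision. The anti-logged signals had the same trimmed mean on both arrays (100.04, with 2% trimmed at each end), while the medians were 22.6 on the wild-type and 17.3 on the VEGF array.

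Signals were floored at each array's background. A fold with 1 array below background is a bound, written "at least". A bound under 1-fold, or a gene below background on both arrays, got no fold. A gene counted when it was at least 2-fold apart, with no test and no p-value. Members were named with every probe set. From each pathway list, the genes at least 2-fold apart and the 2 brightest were named. The gene IDs of 28 of 28 member probe sets were found with the same symbol in the GRCm38.p6 gene table. The members and lists were chosen with earlier results of these data known. The ratio calculation was tested on simulated data. The other settings were other floors, an offset of 50, quantile and loess normalization (span 0.3), centred ratios, another gene summary, dropping the _x_at and _s_at probe sets, and a stricter filter on signal (each array above background and their mean at least 4 times it). Promoter windows came from RefSeq. Python 3.11.15, pandas 2.3.3, numpy 2.4.6 and statsmodels 0.14.6 were used.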

Additional observations from a re-analysis of the deposited data

How the results depend on the processing

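No paired analysis was possible because each genotype has 1 array. Under 10 alternative settings, 9 of the 10 members kept the sign of their log2 ratio wherever they had one, and *Spred1* kept it in 9 of 10. Not every setting could change a member's ratio. Each brightest member probe set lay above every floor and was not an _x_at or _s_at probe set. The other floors and dropping those probe sets therefore left the ratios as reported, and the stricter filter could only remove a gene. The counts of kept signs and moved ratios include these settings. The floors did change the count of member probe sets at least 2-fold lower, which was 5 of 23 as reported. It was 4 of 23 with the array median or a common floor, and 7 of 28 with no floor. The offset of 50 changed most: 0 of 10 members (0.412% of all genes) and 0 of 28 probe sets were at least 2-fold lower, and the median log2 ratio was -0.16 while that of all genes went from -0.04 to 0.10. With the median over probe sets 2 members (*Spry4* and *Spred2*) were at least 2-fold lower, beside 8.68% of all genes. With the stricter filter, which removed *Spry4*, these were 0 of 9 members, beside 3.69% of all genes, and 1 of 13 probe sets. *Spry4* lay between -1.58 and -0.55 over 9 settings and stayed past 2-fold in 8. *Dusp6* lay between -0.79 and -0.40 and *Dusp5* between 0.39 and 0.75. Of 99 single-gene ratios, 12 moved by more than the probe-set SD, and of 180 list values 18 did or, for counts, moved by over 1.5 times. The share of all genes at least 2-fold lower and higher was 4.73% and 4.94% after quantile normalization, against 8.53% and 3.87%. Signals near background limit *Spry4* and the dim probe sets of *Etv5* and *Spred2*.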

Other observations

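Several genes of the same lists, named here after their values were seen, differed, as deposited, without passing 2-fold. The fibroblast growth factor receptor genes *Fgfr2* and *Fgfr3* were lower on the VEGF array, like *Fgfr1*, with signals of 392 on the wild-type and 243 on the VEGF array for *Fgfr2* (log2 ratio -0.69) and 450 and 328 for *Fgfr3* (log2 ratio -0.46). Their other probe sets were below 0 as well, between -0.88 and -0.51 for *Fgfr2* and at -0.90 for *Fgfr3*. With *Etv3*, which encodes an ETS repressor, 364 on the wild-type and 213 on the VEGF array (log2 ratio -0.77) went with -1.33 to -0.57 from its other probe sets.

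Some ERK-responsive genes outside the feedback group had higher signals on the VEGF array. *Ccnd1*, which encodes the G1 cyclin D1, had 2762 on the wild-type and 4875 on the VEGF array (log2 ratio 0.82), and its other probe sets gave ratios of 1.0 and 1.45. *Epha2*, an ephrin receptor gene, had 312 and 575 (log2 ratio 0.88), and *Plaur*, the urokinase receptor gene, had 145 and 289 (log2 ratio 0.99).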
